A study of Homo sapiens with 6 samples.

Results

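The feedback inhibitors of ERK signaling examined in these data are 10 genes in 3 families: the dual-specificity phosphatases DUSP1, DUSP4, DUSP5, DUSP6 and DUSP7, the Sprouty genes SPRY1, SPRY2 and SPRY4, and the Sprouty-related genes SPRED1 and SPRED2. They were chosen by gene symbol, and all 10 were found among the 27216 rows of the expression table. RNA sequencing was performed on the H1975 line, human non-small cell lung cancer (NSCLC) cells with mutant EGFR whose genotype is labelled WT, in 3 parental and 3 adapted samples. Adapted cells had received 1000 nM Osi (osimertinib, an EGFR tyrosine kinase inhibitor) for 72 h, and parental cells are labelled with the same agent and dose for 0 h. Apoptotic cells were removed by washing before RNA was taken, so the adapted samples represent the cells that stayed attached. The columns of the parental samples carry the name DMSO, and whether they grew in DMSO, and how long, is not given in the sources used here, so time in culture and Osi cannot be told apart. The labels describe RNase R digestion of linear RNA before library construction, whereas the methods of the study describe total RNA without it.

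ERK, the last kinase of the RAS-RAF-MEK-ERK cascade downstream of EGFR, switches on transcription of several of its own inhibitors. DUSP proteins remove phosphate from the activation loop of ERK and related kinases, in the nucleus or in the cytoplasm depending on the member. Sprouty and SPRED proteins act further upstream, between the receptor, RAS and RAF. In EGFR-mutant lung cancer cells DUSP6, SPRY4 and other members of this group are commonly read as transcriptional indicators of ERK output.

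The deposited values were read as log2(FPKM + 1). FPKM expresses fragments relative to the length of the transcript and the mapped fragments of the sample. Fold changes are adapted minus parental on this log2 scale, where the added 1 compresses the change of weakly expressed genes. The depth of the samples is unknown, so the spread between the 3 replicates is the only error. Nothing in the labels says that replicates came from separate cultures, so p-values measure the spread between these samples, which may be technical. The 3 parental samples were closer to one another (Pearson r across rows of at least 0.9972) than adapted replicate 1 was to adapted replicates 2 and 3 (0.9909 and 0.9906), whereas the latter pair correlated at 0.9961. All 6 epithelial markers examined were present, with a summed FPKM of 3710 to 3740 in parental and 3490 to 3790 in adapted samples. Within this sum single genes moved in opposite directions. KRT7 rose from a mean of 671 to 1422 FPKM (limma, adjusted p = 0.000219) and KRT19 fell from 936 to 557 FPKM (adjusted p = 0.000474). KRT18 (adjusted p = 0.00427) and KRT8 (adjusted p = 0.0477) also fell, while EPCAM and CDH1 did not pass 0.05. Of 4 lung adenocarcinoma markers, NKX2-1 and NAPSA were present and SFTPB and SFTPC stayed under 1 FPKM in every sample. NKX2-1 rose by 0.47 (limma, adjusted p = 0.0117) and NAPSA fell by 0.81 (adjusted p = 0.00474) on the log2 scale. For 7 markers of blood, vascular and stromal cells the summed FPKM was 78.5 to 80.7 in parental and 23.6 to 36.6 in adapted samples, most of it from CD68, with CD3E at 0 and PTPRC, VWF and DCN under 1 FPKM throughout. These markers moved in different directions: CD68 fell from a mean of 75.1 to 21.0 FPKM (limma, adjusted p = 0.000363), the stromal marker COL1A1 rose from 3.06 to 7.86 FPKM (adjusted p = 7.8e-05), and the vascular marker PECAM1, below the filter on low values, was at 1.35 and 0.063 FPKM. Their part in the results below was not tested. In these bulk samples, fewer cells that express a gene and less RNA of it per cell cannot be told apart.

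Most of the feedback inhibitors were lower in adapted cells, and the size of the fall differed widely between members. DUSP5 and DUSP6, both selective for ERK, fell to 5.68% and 6.03% of their parental FPKM, and SPRY4 fell to 10.8%. SPRED2, SPRED1 and SPRY1 fell to 42.1%, 41.0% and 49.1%, whereas DUSP1 rose to 152%. DUSP4, DUSP7 and SPRY2 did not pass the threshold. By limma with Benjamini-Hochberg adjustment over 12656 tested rows at a threshold of 0.05, 7 of the 10 members were called, against 56.9% of all tested rows. The 6 that fell compare with 26.2% of all tested rows, and the 1 that rose compares with 30.7%. Of the 10 members, 5 fell with a log2 fold change of at least 1 in size, a combination of size and threshold that 10.5% of all tested rows met in either direction. The median log2 fold change was -0.99 over the members and 0.03 over all tested rows. The 3 parental and 3 adapted values did not overlap in 8 of the 10 members, against 66.3% of all tested rows. All 10 members passed the filter on low values (a mean of at least 1 over the 6 samples), though DUSP6 and SPRY4 averaged under 1 in adapted cells.

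**Figure D1:**
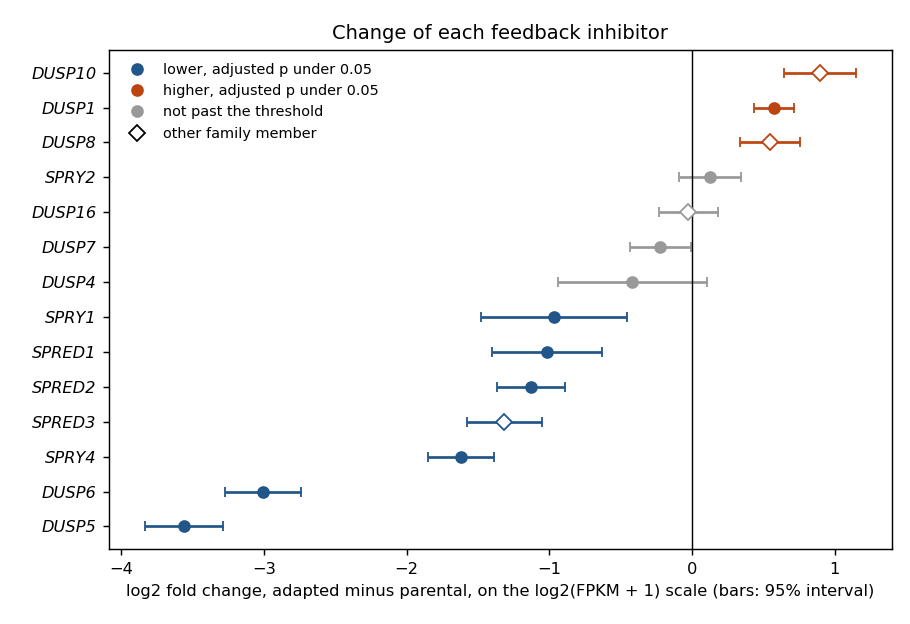
Log2 fold change of the 10 feedback inhibitors (filled circles) and of 4 other tested members of the same families (open diamonds), adapted minus parental on the log2(FPKM + 1) scale, with 95% confidence intervals from limma. DUSP5 (-3.56) and DUSP6 (-3.01) lie far to the left of the rest, DUSP10 (0.90), DUSP1 (0.57) and DUSP8 (0.55) lie to the right of zero, and the intervals of SPRY2, DUSP16 and DUSP4 cross zero.

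Bases before the start sites of DUSP1, the 1 member that rose, and of DUSP6, which fell, are shown as examples (RefSeq, GRCh38.p14, minus strand of each chromosome, written in the direction of transcription). The DUSP1 stretch covers the 250 bases before the start, at chr5:172771196-172771445, and overlaps no GENCODE v29 exon of DUSP1. Exons of other genes were not compared with it. Its capitals mark the cyclic AMP response element TGACGTCA, 125 to 118 bases before the start, and the shorter sites TGACG or its reverse complement, of which 4 were found, 2 of them within the full element. The last TGACG site overlaps an E-box (CACGTG). The DUSP6 stretch is 30 bases at chr12:89352632-89352661, 160 to 131 bases before the RefSeq start, and overlaps 1 GENCODE v29 exon of DUSP6. Its capitals mark 2 ETS cores (CGGAA or its reverse complement TTCCG). A further ETS core lies 61 to 57 bases before the start, outside the stretch shown. The DUSP6 stretch was thus cut around some of its ETS cores. At 250 and 30 bases the stretches are not a matched comparison.
DUSP1: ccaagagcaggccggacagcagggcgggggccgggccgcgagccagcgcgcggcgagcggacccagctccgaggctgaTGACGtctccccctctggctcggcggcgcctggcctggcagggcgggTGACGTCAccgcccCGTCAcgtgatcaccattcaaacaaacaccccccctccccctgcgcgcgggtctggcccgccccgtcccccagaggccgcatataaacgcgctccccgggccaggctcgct
DUSP6: cggagCGGAAattcctTTCCGtttttgtga
Over the 250 bases before the start of 27305 genes, both strands searched, TGACGTCA was present in 2.03%, TGACG in 24.9% and CGGAA in 34.5%. The DUSP1 window held no ETS core and the DUSP6 window held neither TGACGTCA nor TGACG. DUSP4 and DUSP5 had no RefSeq window here and were not searched. Of the 8 members with a window, DUSP1 alone held the full element. DUSP6, SPRY1 and SPRY2 held an ETS core in at least 1 window, and SPRY2 and SPRY4, besides DUSP1, held TGACG. SPRY4, SPRED1 and SPRED2, which fell, held no ETS core, whereas SPRY2, which did not pass the threshold, held 2 in 1 of its 3 windows. AP-1 sites (TGANTCA, in 8.06% of genes) and CArG boxes (in 1.44%) were found in none of these 8, and DUSP1 alone held CACGTG (7.73%). These matches describe letters in the window and were not tested for binding or against the direction of change.

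DUSP1, DUSP4 and DUSP5 encode the nuclear phosphatases. DUSP1 (chr5:172768090-172771195, minus strand), an immediate early gene whose product acts on p38 and JNK as well as ERK, had log2(FPKM + 1) values of 4.18, 4.06 and 4.08 in parental replicates 1 to 3 and 4.68, 4.72 and 4.65 in adapted replicates 1 to 3. Every adapted sample lay above every parental sample. The mean rose from 4.11 ± 0.06 to 4.68 ± 0.03 (SD, n = 3 each), so the log2 fold change was 0.57 with a standard error of 0.06 (limma, adjusted p = 0.000215).

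DUSP5 (chr10:110497838-110511544, plus strand), a phosphatase specific for ERK that also holds the inactive kinase in the nucleus, gave 5.06, 5.03 and 5.03 in parental samples and 1.75, 1.32 and 1.37 in adapted samples. The groups were far apart, with adapted replicate 1 the highest of the treated samples. DUSP5 fell by 3.56 log2 units (SE 0.12, limma, adjusted p = 1.97e-06), from 32.0 ± 0.41 to 1.82 ± 0.48 FPKM (SD, n = 3 each), a ratio of 17.6, and it was the 24th row from the lowest fold change among the 12656. This was the largest change of the 10 members.

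DUSP4, which acts on ERK, JNK and p38, was measured at 3.16, 3.11 and 3.16 in parental samples and at 3.27, 2.60 and 2.29 in adapted samples. Adapted replicate 1 lay above all parental samples while adapted replicates 2 and 3 lay below them, so the groups overlapped. The log2 fold change was -0.42 with a 95% confidence interval from -0.94 to 0.10 (limma, adjusted p = 0.144). Without adapted replicate 1 the value was -0.70 and passed the threshold (limma, adjusted p = 0.000619), and over all fits that left out 1 sample it ranged from -0.70 to -0.21. The call for DUSP4 therefore rests on 1 adapted sample.

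DUSP6 and DUSP7 encode cytoplasmic phosphatases that prefer ERK. DUSP6 (chr12:89347232-89353271, minus strand) had values of 3.91, 3.84 and 3.82 in parental samples and 1.02, 0.92 and 0.61 in adapted samples. All adapted samples were more than 2 log2 units below every parental sample. It fell by 3.01 log2 units (SE 0.11, limma, adjusted p = 3.17e-06), from 13.5 ± 0.51 to 0.814 ± 0.257 FPKM (SD, n = 3 each), a ratio of 16.6, and ranked 39th from the lowest. The GENCODE v29 gene AC024909.2 lies on the opposite strand and shares 1875 exonic bases with DUSP6, it has no row in the table, and since no source states whether counting used strand, reads of the pair cannot be told apart.

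DUSP7 (chr3:52048919-52056550, minus strand), the close relative of DUSP6, gave 2.16, 2.12 and 2.25 in parental samples and 2.09, 1.84 and 1.93 in adapted samples. Each adapted value lay below each parental value, but adapted replicate 1 was within 0.1 log2 units of parental replicates 1 and 2. The log2 fold change of -0.22 had a 95% confidence interval from -0.44 to -0.006 and did not pass after adjustment (limma, adjusted p = 0.0733). It passed with quantile normalization (-0.28, limma, adjusted p = 0.0371) and without adapted replicate 1 (-0.29, adjusted p = 0.0121).

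**Figure D2:**
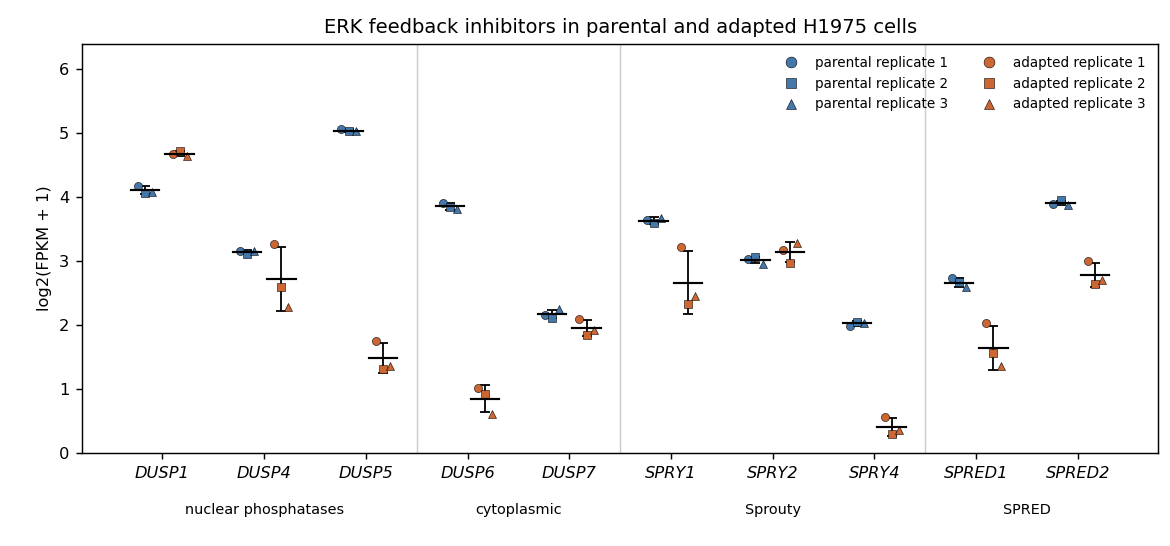
Log2(FPKM + 1) of each feedback inhibitor in every sample, with parental samples in blue, adapted samples in orange, the marker shape giving the replicate number, and a bar at the mean with 1 SD (n = 3). The parental samples lie close together for each gene, and adapted replicate 1 lies nearest to the parental samples in DUSP4, DUSP5, SPRY1, SPRY4, SPRED1 and SPRED2, among others.

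The Sprouty genes split in 3 ways. SPRY4 (chr5:142310427-142326455, minus strand), an inhibitor of the RAS-ERK pathway downstream of growth factor receptors, had values of 1.99, 2.05 and 2.04 in parental samples and 0.57, 0.30 and 0.36 in adapted samples. The groups did not overlap. SPRY4 fell by 1.62 log2 units (SE 0.10, limma, adjusted p = 2.12e-05), from 3.08 ± 0.09 to 0.333 ± 0.132 FPKM (SD, n = 3 each), a ratio of 9.25. Because its adapted level was under 1 FPKM, the added 1 compressed the change, and with 0.1 added in its place the log2 fold change was -2.92.

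SPRY1 (chr4:123396795-123403760, plus strand), an antagonist of receptor tyrosine kinase signaling named for the fly gene, was at 3.64, 3.59 and 3.68 in parental samples and at 3.23, 2.33 and 2.45 in adapted samples. All adapted samples were lower, with adapted replicate 1 much nearer to the parental level than the other two. The log2 fold change was -0.97 with a standard error of 0.22 (limma, adjusted p = 0.00723). When every row was tested without the filter on low values, SPRY1 missed the threshold (adjusted p = 0.0521).

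SPRY2 (chr13:80335976-80340951, minus strand), which binds the ubiquitin ligase CBL and GRB2, had values of 3.04, 3.06 and 2.96 in parental samples and 3.18, 2.97 and 3.28 in adapted samples. Adapted replicates 1 and 3 were above all parental samples and adapted replicate 2 was among them. The log2 fold change of 0.12 had a 95% confidence interval from -0.09 to 0.34 (limma, adjusted p = 0.286), which excludes a fall of the size seen in SPRY1 or SPRY4 but leaves room for a small change in either direction.

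SPRED1 and SPRED2 bring the RAS GTPase-activating protein neurofibromin to the membrane. SPRED1 (chr15:38252326-38357249, plus strand) was at 2.74, 2.68 and 2.59 in parental samples and at 2.03, 1.56 and 1.36 in adapted samples. SPRED2 (chr2:65310851-65432637, minus strand) was at 3.90, 3.95 and 3.88 in parental samples and at 3.0, 2.65 and 2.70 in adapted samples. In both genes every adapted sample lay below every parental sample, and adapted replicate 1 was the highest of the adapted samples. SPRED1 fell by 1.02 (SE 0.17, limma, adjusted p = 0.00164) and SPRED2 fell by 1.13 (SE 0.10, limma, adjusted p = 0.000106) on the log2 scale.

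An exact two-sided permutation test of each member alone, 3 samples against 3, gave p = 0.1 for the 8 members without overlap, which is the smallest p this design allows, p = 0.3 for SPRY2 and p = 0.4 for DUSP4.

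The order of the members by level, compared in FPKM since this is scaled to transcript length, changed between the groups. In parental cells DUSP5 was the highest (32.0 FPKM), followed by DUSP1 (16.3), SPRED2 (14.1), DUSP6 (13.5), SPRY1 (11.4), DUSP4 (7.82), SPRY2 (7.12), SPRED1 (5.35), DUSP7 (3.52) and SPRY4 (3.08), and only SPRED2 and DUSP6 overlapped with the neighbour below or above. In adapted cells DUSP1 came first at 24.7 ± 0.567 FPKM (SD, n = 3), well above SPRY2 at 7.89 ± 0.971. SPRY2, SPRED2 (5.92), DUSP4 (5.87) and SPRY1 (5.61) then followed with overlapping neighbours, as did DUSP7 (2.88), SPRED1 (2.20) and DUSP5 (1.82), with DUSP6 (0.814) and SPRY4 (0.333) last and apart.

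The summed FPKM of the 10 members was 116.4, 113.1 and 112.9 in parental replicates 1 to 3 and 66.99, 53.58 and 53.49 in adapted replicates 1 to 3. Within this sum DUSP5 made up 27.9% to 28.1% in parental samples and 2.79% to 3.53% in adapted samples. DUSP1, at 13.9% to 14.7% of the sum in parental samples, made up 36.8%, 47.2% and 45.1% in adapted replicates 1 to 3. SPRY2 went from 6.02% to 6.47% of the sum up to 12.1% to 16.3%. DUSP1 was thus the largest contributor to the sum in every adapted sample and DUSP5 in every parental sample. A share also grows when the sum shrinks. SPRY2 itself had a mean of 7.12 FPKM in parental and 7.89 in adapted samples (limma, adjusted p = 0.286), and DUSP1 rose to 152% of its parental FPKM.

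**Figure D3:**
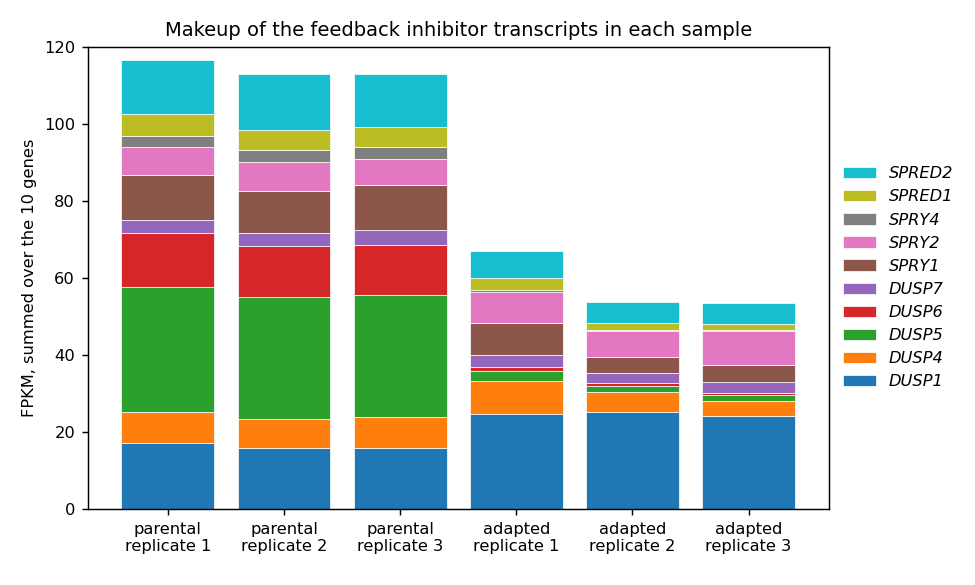
FPKM of the 10 feedback inhibitors stacked for each of the 6 samples, with the axis starting at 0. The parental columns reach 112.9 to 116.4 and the adapted columns 53.49 to 66.99, with the DUSP5 and DUSP6 segments nearly gone and the DUSP1 segment larger in every adapted sample.

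To ask whether relatives moved by different amounts, the difference of log2 values between 6 pairs of related members was taken within each sample. DUSP6 minus DUSP7 was 1.75, 1.72 and 1.57 in parental samples and -1.08, -0.92 and -1.32 in adapted samples, so the order of the 2 cytoplasmic phosphatases turned around in every sample. DUSP5 minus DUSP4 turned around as well, from a mean of 1.90 ± 0.03 to -1.24 ± 0.30 (SD, n = 3 each). SPRY4 minus SPRY2 went from -0.99 ± 0.07 to -2.74 ± 0.16, a shift of -1.74, with no overlap between the groups. With a pseudocount of 0.1 this shift was -3.06, as SPRY4 was under 1 FPKM in adapted cells. SPRY2 minus SPRY1 was -0.59, -0.53 and -0.72 in parental samples and -0.04, 0.64 and 0.84 in adapted samples, a shift of 1.09 in which adapted replicate 1 again lay closest to the parental samples. DUSP4 minus DUSP1 shifted by -0.99, from -0.97 ± 0.05 to -1.96 ± 0.49.

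SPRED1 minus SPRED2 was the exception, at -1.17, -1.28 and -1.30 in parental samples and -0.97, -1.09 and -1.34 in adapted samples. The groups overlapped and the shift was 0.11 (exact two-sided permutation test, p = 0.4), a value whose sign depended on the pseudocount. Each of the other 5 pairs showed no overlap and gave p = 0.1 in the exact permutation test, the smallest that 3 against 3 allows, and p = 0.12 after Benjamini-Hochberg adjustment over the 6 pairs. This exact test could thus not pass 0.05 for any pair.

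**Figure D4:**
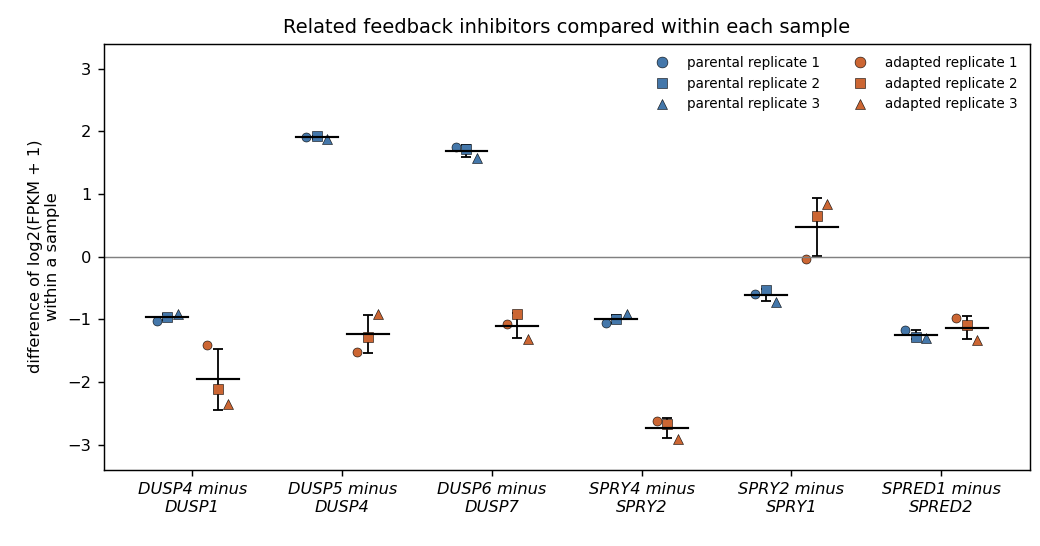
Difference of log2(FPKM + 1) between 2 related feedback inhibitors within each sample, first gene minus second, with parental samples in blue, adapted samples in orange and a bar at the mean with 1 SD (n = 3). DUSP5 minus DUSP4 and DUSP6 minus DUSP7 are above zero in all parental and below zero in all adapted samples, whereas SPRED1 minus SPRED2 overlaps between the groups.

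The adapted samples were not alike in how far the members had fallen. In 6 of the 6 members that fell, adapted replicate 1 was the adapted sample nearest to the parental mean. The same held for 56.0% of all 3313 rows that fell and for 75.5% of the 656 rows that fell by a log2 fold change of at least 1, so the members shared this with much of the table. The members' calls without that sample are the same except for DUSP4 and DUSP7, both then lower.

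Other genes of the same families moved in both directions. DUSP10, a phosphatase that prefers p38 and JNK, gave 3.13, 3.22 and 3.11 in parental samples and 3.83, 4.09 and 4.23 in adapted samples, and its log2 fold change was 0.90 (limma, adjusted p = 0.000392). DUSP8, which also prefers these stress kinases, was at 1.39, 1.48 and 1.33 and then at 1.91, 1.87 and 2.06, a rise of 0.55 (adjusted p = 0.00173). DUSP16, of the same group, was at 4.04, 4.04 and 4.0 and then at 3.82, 4.06 and 4.12, with overlapping groups and a log2 fold change of -0.03 (adjusted p = 0.817). SPRED3 was at 1.94, 1.94 and 1.80 in parental and at 0.75, 0.41 and 0.58 in adapted samples and fell by 1.32 (limma, adjusted p = 8.71e-05), so all 3 SPRED genes fell. DUSP2, DUSP9 and SPRY3 were below the filter on low values.

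Among 13 other transcripts that ERK is known to induce, 9 fell, 1 rose and 3 did not pass, with a median log2 fold change of -1.68. EGR1 (-3.92), a zinc finger immediate early factor, ETV4 (-2.62), an ETS factor, and IER3 (-2.52) fell most, and the receptor EPHA4 rose by 1.81. The fallen genes of this list ranged from -3.92 to -0.87 in log2 fold change, and all 6 feedback inhibitors that fell lay within this range. Only genes that fell were compared and the range is wide, so this placement was largely set in advance and tests no likeness. The members and list genes that rose or did not pass lie outside this comparison. The share of rows called in the whole table, 56.9%, applies to these lists too.

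The cascade that the feedback inhibitors act on showed no common direction. Of 17 genes from adaptor to ERK, 5 rose, 5 fell and 7 did not pass, with a median of -0.02. MAP2K1, which encodes MEK1, fell by 1.09, the scaffold KSR1 fell by 1.01 and the adaptor GAB1, which docks on the receptor complex, fell by 0.76 on the log2 scale. The exchange factor SOS1 rose by 0.51. MAP2K2, which encodes MEK2, rose by 0.66 log2 units (limma, adjusted p = 0.000147) in the values as deposited. Its adapted values, unlike those of the feedback inhibitors, do not return to FPKM with 6 decimals, and they do so after 0.65 is subtracted. With the constant subtracted its log2 fold change was 0.01 (limma, adjusted p = 0.898), and with the constants of all such rows subtracted 3 genes of the cascade rose. The number that rose was also 3 in each of the fits that left out 1 parental sample, adapted replicate 2 or adapted replicate 3. These were not the same 3 genes, since SOS2 and ARAF then missed the threshold while MAP2K2 counted in the values as deposited. Only SOS1 rose in both cases.

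Of 8 RAS GTPase-activating proteins, 2 rose, 3 fell and 3 did not pass, with a median of -0.15. NF1, which encodes the neurofibromin that SPRED proteins bind, fell by 0.54 (limma, adjusted p = 0.000213), RASAL1 fell by 1.08 and RASA1 by 0.71, while RASAL2 rose by 0.68 and DAB2IP by 0.37. Of 8 genes whose products bind Sprouty proteins or control their turnover, 4 rose, 2 fell and 2 did not pass, with a median of 0.19. CBLB, a ubiquitin ligase related to CBL, rose by 0.88, CAV1, the caveolar coat protein, by 0.87 and the kinase gene MKNK1 by 0.81. CBL fell by 0.45 and the ubiquitin ligase gene SIAH2 by 0.21, and the call for SIAH2 (limma, adjusted p = 0.0409) was lost in every fit that left out 1 sample other than adapted replicate 3 and in 3 further alternatives.

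DUSP1 and DUSP4 also act on kinases of the JNK and p38 families, though not every kinase of these families need be a substrate. Of 7 JNK and p38 kinase genes, 1 rose, 3 fell and 3 did not pass, with a median of -0.07. MAPK10 fell by 0.69 (limma, adjusted p = 0.00351) and MAPK13 by 0.59 (adjusted p = 0.00536). The rise of MAPK8 (0.78) and the fall of MAPK9 (-0.32) rest on values that return to 6 decimals only after 0.65 is subtracted in adapted and 0.2 in parental samples. With the constants subtracted they were 0.13 (limma, adjusted p = 0.435) and -0.12 (adjusted p = 0.336). Without adapted replicate 3, MAPK14 also rose (limma, adjusted p = 0.0264), so that 2 genes of this list then did, MAPK8 in the values as deposited. MAPK14 passed in this 1 of 18 alternatives only, and its groups overlapped when all samples were kept.

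**Figure D5:**
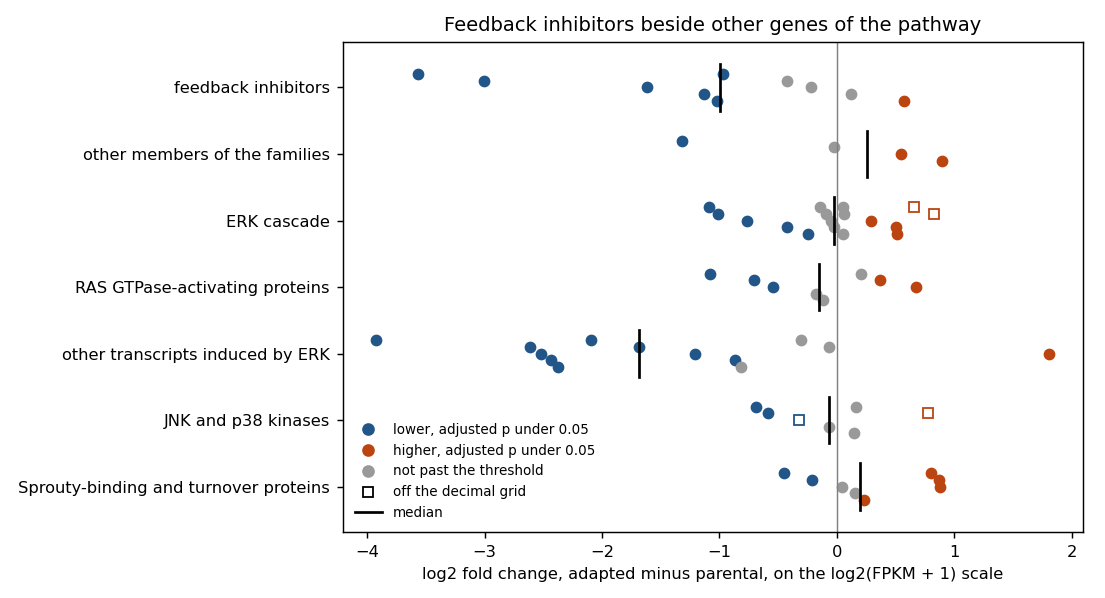
Log2 fold change of the feedback inhibitors and of 6 other gene lists of the pathway, adapted minus parental on the log2(FPKM + 1) scale, 1 point per tested gene, with a vertical bar at the median of each list and open squares for genes with values off the 6-decimal grid. The medians of the feedback inhibitors (-0.99) and of the other ERK-induced transcripts (-1.68) lie to the left of zero, and the medians of the other 5 lists lie between -0.15 and 0.26.

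The genes whose pattern over the 6 samples was most like that of DUSP6, each centred on its own mean and compared by Euclidean distance in log2 units, were PI3 (distance 0.283), SPRR2A (0.291) and SLCO4A1 (0.309). PI3, an elastase inhibitor, was at 4.28, 4.22 and 4.30 in parental and at 1.24, 1.26 and 1.2 in adapted samples. SLCO4A1, an organic anion transporter, went from 6.91, 6.90 and 6.87 to 3.93, 3.63 and 3.67, and SPRR2A, a cornified envelope protein, went from 3.4, 3.37 and 3.35 to 0.51, 0.11 and 0.12. Among the feedback inhibitors DUSP5 lay nearest to DUSP6 (0.738), then SPRY4 (1.73), and DUSP1 lay farthest (4.40). The distance mainly reflects the size of the fall between the groups, which these samples share.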

How the data were processed

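The authors deposited 1 table of log2 values, 1 column for each of 6 samples, and the columns were matched to samples by group and replicate number. The unit is not named. Taking 2 to the power of a value and subtracting 1 gave numbers with 6 decimals in 27069 of 27216 rows (tolerance 0.01 of the last decimal), so it was read as log2(FPKM + 1). In the other 147 rows 1 group is offset by a constant (0.66 in 87 rows and 0.65 in 35 rows, adapted, and 0.2 in 25 rows, parental). No feedback inhibitor is among them. The submitters' processing notes list Bowtie2 2.1.0, STAR, edgeR and hg38, without a role or order, and the study names DESeq2, which needs counts. Rows with a mean of at least 1 (12656) were therefore tested, unpaired, with limma 3.58.1 in R 4.3.3 (lmFit, eBayes with intensity trend), Benjamini-Hochberg adjustment and a threshold of 0.05, after the fit was tested on simulated data. Tables and plots were made with Python 3.11.15, pandas 2.3.3 and matplotlib 3.10.9. Positions are from GENCODE v29 and sequences from RefSeq.

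The feedback inhibitors, the pairs of related members and all gene lists were chosen with earlier results of these data known. Genes named are all members, up to 3 that rose and 3 that fell most past the threshold in each list, list genes below the filter by name, the 3 annotated genes nearest to DUSP6, and, named after their values were seen, SOS2, ARAF, MAPK14 and marker genes. A result that this rule selects is not reported here. Alternatives were a pseudocount of 0.1, no filter or a mean of at least 3, quantile normalization, an equal sum per sample, median centring, eBayes without trend or robust, a replicate block, omission of each sample, of rows with NewGene_ names or of offset rows, and an added log2 fold change of at least 1. Subtracting the constants was chosen after seeing the data.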

Additional observations from a re-analysis of the deposited data

How the results depend on the processing

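Of 175 alternative values for single members, 171 kept their direction and their side of the threshold. The exceptions were DUSP4 without adapted replicate 1, DUSP7 with quantile normalization and without adapted replicate 1, and SPRY1 without a filter, whose values are given above. Many of the alternatives cannot change a member's fold change, only its adjusted p. These are the filters, the eBayes settings, the replicate block, the omission of other rows and the subtraction of constants. Their kept direction is therefore no evidence of stability. The number of rows called, 7202, was 4532 with a mean of at least 3 and 1328 with a log2 fold change of at least 1 added, since fewer rows can then be called, and 5763 to 8370 when 1 sample was left out. With a mean of at least 3, 3 members were called lower, as fewer members were tested, and with a log2 fold change of at least 1 added 0 members were called higher, DUSP1 having risen by 0.57. SPRED1 minus SPRED2 turned from 0.11 to -0.054 with a pseudocount of 0.1. The scalings left the share of higher among all calls between 51.1% and 54.9%, against 54.0%.

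The groups share replicate numbers, but deviations of same-numbered samples from their group means did not correlate (-0.051, -0.031 and -0.02). Pairs with other numbers gave -0.036 to 0.066. This check cannot show whether same-numbered samples shared a culture or a day, and the main fit was unpaired. With a replicate block 6761 rows were called and the members' calls were 1 higher and 6 lower, as without it. The depth is unknown, so counting error in low genes such as SPRY4 in adapted cells could not be given.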
